A study of Mus musculus with 72 samples.

Results

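The diet comparison described here is that of the pituitary glands of adult offspring of calorie-restricted dams, in which 6 mice on a high-fat diet (CR20-HFD) were set against 6 mice on a control diet (CR20-CTRL). The 12 libraries were taken by maternal group, diet and tissue, out of 72 libraries in the series. All mice were males of a "sighted" FVB line, FVB.129P2-Pde6b+ Tyrc-ch/AntJ, which carries a working Pde6b gene in place of the retinal degeneration allele of FVB. CR20 dams received 20% less food from embryonic day 15 through lactation, and FED dams ate freely. The pups were weaned at postnatal day 21 and began the diets at 8 weeks of age, with 10% of energy as fat in the CTRL diet and 45% in the HFD diet. Pups of each dam were assigned to either diet. Length of diet exposure is given as 10 weeks in the study's text, and 10 or 16 weeks in the labels. Which mice shared a dam is not given, so littermates may be among the replicates. RNA came from whole glands, so fewer cells of a type and less RNA per cell cannot be told apart in any value below. All 55416 genes of the count table were considered, and 16657 passed the filter on low counts.

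The anterior pituitary releases growth hormone, prolactin, corticotropin, thyrotropin and the gonadotropins from separate cell types, each under hypothalamic releasing or inhibiting factors. Peripheral signals of nutrition, such as leptin, ghrelin, insulin, IGF-1 and glucocorticoids, act back on these cells. Pituitary cells also hold a circadian clock, in which BMAL1 and CLOCK activate the Per, Cry, Nr1d and Dbp genes and the PER, CRY and NR1D proteins repress that drive.

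Total counts were 20669704 to 24369270 in CR20-CTRL and 19255372 to 27601208 in CR20-HFD, and 3 reads corresponded to 0.109 to 0.164 CPM (counts scaled to 1e6 reads) over the pituitary libraries. Gh alone took 22.4 to 31.5% of the counts in CR20-CTRL and 24.3 to 29.1% in CR20-HFD. Single libraries stood apart. The CR20-HFD mouse 7 library held 22637 counts of Bpifa2, 14592 of Dcpp1 and 8311 of Dcpp2, genes known for proteins secreted into saliva, while no other pituitary library held more than 3 counts of any of these. In all, 7 genes reached at least 50 counts in mouse 7 and at most 3 in every other pituitary library, and together they made up 0.203% of its counts. These 7 genes were looked up after their values were seen, and their relation to the differences below was not tested. Of 66 named genes at an unadjusted p under 0.05 in the diet comparison, 12 were above it without mouse 7 (Tcstv4, Jak2, Stat3, Lhx3, Pcsk1n, Nr1d1, Rora, Ccnb1, Peg3, Snrpn, Nnat and Cox6b2). Over all genes, 80.6% of the 1212 at that limit were under it again without mouse 7. Among the FED libraries, used below for comparison, FED-HFD mouse 10 had 46.1 CPM of summed adipocyte markers against at most 1.1 in every other pituitary library. FED-HFD mouse 13 had 13900 CPM of erythroid markers against at most 5370 elsewhere.

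No gene passed an adjusted p-value of 0.05 in CR20-HFD against CR20-CTRL (0 of 16657, 0%; smallest adjusted p = 0.34 for Acot1, edgeR). Limma voom, with or without quality weights, also called 0 genes. DESeq2 called 1 gene, Acot1, and edgeR with no filter on low counts called 7. Acot1 encodes a cytosolic thioesterase that releases fatty acids from acyl-CoA (adjusted p = 0.0093 in DESeq2). At an unadjusted p under 0.05, 1212 genes (7.28% of those tested) were counted, 457 with higher values in CR20-HFD (2.74%) and 755 with lower values (4.53%). Only 69 genes (0.414%) had a fitted difference of at least 1 log2 unit in either direction. Values of the 6 HFD mice and the 6 CTRL mice did not overlap for 68 genes (0.408%), of which 27 were higher in HFD (0.162%) and 41 lower (0.246%). Over all genes, 45.7% had a log2 fold change above 0, and the median was -0.02.

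The precision of the comparison can be read from its intervals. The median standard error of a log2 fold change was 0.126, and 14796 genes (88.8%) had a 95% interval wholly between -1 and 1. For 11836 genes (71.1%) the interval lay within 0.58 of 0 on the log2 scale, the fold limit of the study's methods. Without mouse 7, 0 of 16783 genes passed and the smallest adjusted p was 0.0618, for Rbm25 (edgeR). At an unadjusted p under 0.05 there were then 1497 genes, 977 of them among the 1212 of all libraries (80.6% of the 1212 and 65.3% of the 1497). This was the largest count with any single mouse left out, and the smallest came without CTRL mouse 49. Without mouse 49, 765 genes (4.56% of those tested) were under that limit, beside 7.28% with all mice. The smallest adjusted p was then higher than with any other mouse left out, and 0 genes passed. The share under that limit thus depended on single mice of either group.

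**Figure D1:**
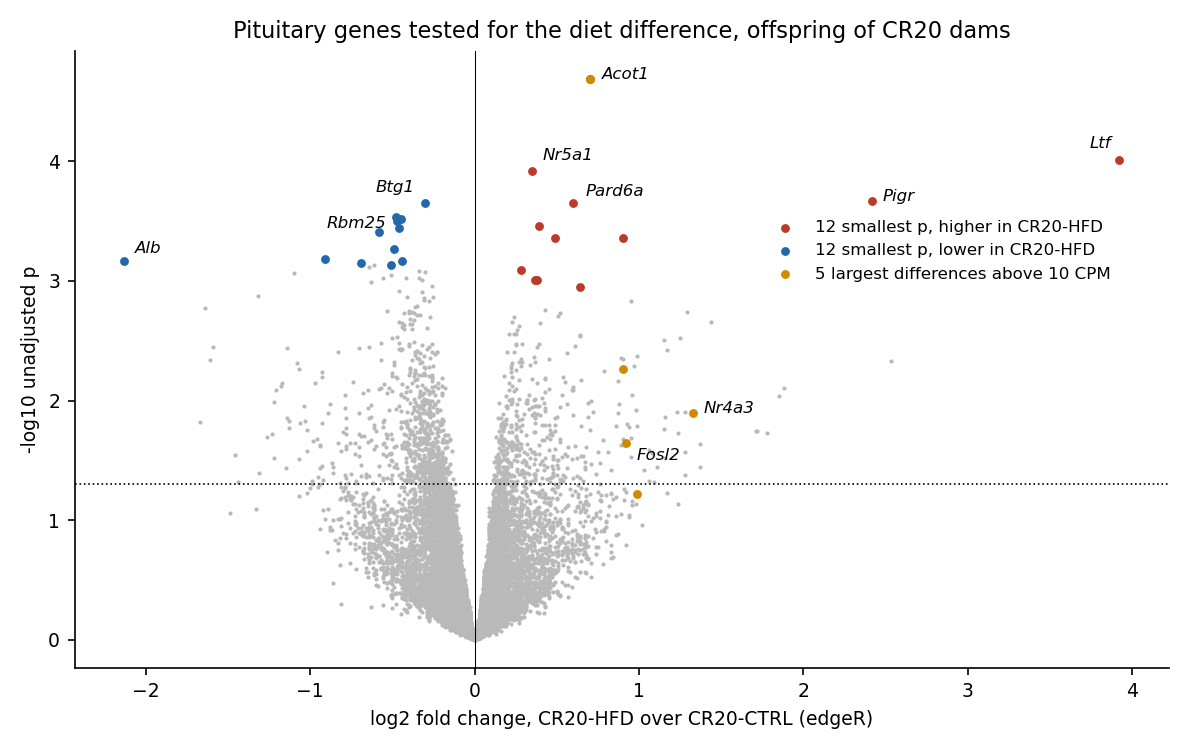
Log2 fold change of CR20-HFD over CR20-CTRL (x axis) against -log10 of the unadjusted edgeR p (y axis) for 16657 pituitary genes; coloured points are the genes named by rule (Acot1 is both among the 12 higher genes and among the 5 largest), and the dotted line marks an unadjusted p of 0.05. Acot1 had the smallest p at a log2 fold change of 0.70, and Ltf, at 3.92, was at 1.82 without mouse 7.

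Transcripts of the pituitary hormones did not separate the diets. Gh (growth hormone) ranged from 17.69 to 18.32 log2 CPM in CR20-CTRL (median 18.10) and from 17.79 to 18.22 in CR20-HFD (median 18.08), with a log2 fold change of 0.01 (95% interval -0.25 to 0.26). The difference was -0.02 for Prl (prolactin; interval -0.36 to 0.33) and 0.01 for Cga (the subunit shared by the glycoprotein hormones; interval -0.23 to 0.26). Changes within these intervals remain compatible with the values, and the intervals are not a limit of detection for 6 mice a group. Tshb (thyrotropin beta) was 0.16 higher (interval -0.05 to 0.37) and Fshb (follicle-stimulating hormone beta) 0.21 lower (log2 fold change -0.21, interval -0.51 to 0.08, and -0.08 without CTRL mouse 33).

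Pomc, the precursor of corticotropin and melanocortins, came nearest to a difference among the hormone genes. Its levels were 14.48 to 15.18 log2 CPM in CR20-CTRL (median 14.75) and 14.28 to 14.76 in CR20-HFD (median 14.63), with a log2 fold change of -0.20 (adjusted p = 0.704). The groups overlapped, and without CTRL mouse 49, the highest, the value was -0.09. Lhb was listed with at most 17 counts in any library (log2 fold change 0.59, interval -0.28 to 1.46), too few to take as a measure of luteinizing hormone beta.

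Among 12 receptors for hypothalamic and related signals, Ghsr, the ghrelin receptor, was the single member at an unadjusted p under 0.05, beside 7.28% of all genes. Its levels were low, from 0.13 to 1.07 log2 CPM in CR20-CTRL (median 0.62) and from 0.48 to 1.73 in CR20-HFD (median 1.38), 1.59-fold higher by the fit (adjusted p = 0.666). The lowest HFD mouse was mouse 7, and without it the log2 fold change moved from 0.67 to 0.80. Ghrhr, the receptor that drives growth hormone release, had a log2 fold change of 0.12 (adjusted p = 0.855). In Ghrhr, too, mouse 7 was the lowest HFD library at 6.80 log2 CPM against 7.52 in the next, and without mouse 7 the value was 0.23 (adjusted p = 0.513).

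The inhibitory somatostatin receptors had lower fitted values in CR20-HFD without reaching that limit, with Sstr1 at -0.23, Sstr2 at -0.42, Sstr3 at -0.10 and Sstr5 at -0.26 (adjusted p = 0.766 to 0.867). Without CTRL mouse 33 alone, Sstr2 was at -0.15 and Sstr1 at -0.10. Crhr1 (corticotropin-releasing hormone receptor) was at 0.09, Avpr1b (pituitary vasopressin receptor) at 0.06, Trhr (thyrotropin-releasing hormone receptor) at -0.05, Gnrhr (gonadotropin-releasing hormone receptor) at 0.02, Drd2 (the dopamine receptor that restrains prolactin) at 0.05 and Adcyap1r1 (PACAP receptor) at 0.02. The median of the 12 receptors was 0.02, beside -0.02 for all genes.

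**Figure D2:**
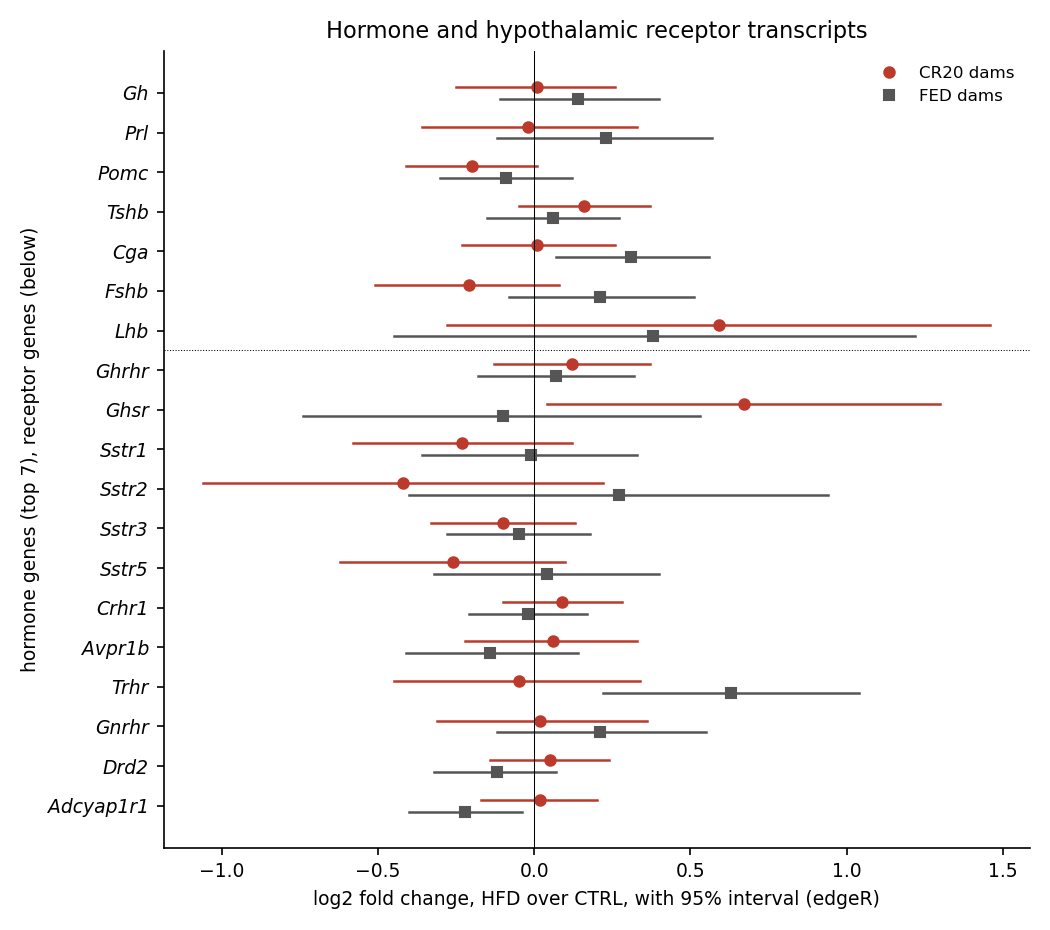
Log2 fold changes of HFD over CTRL with 95% intervals (x axis) for 7 hormone genes and 12 receptor genes (y axis); circles are offspring of CR20 dams and squares offspring of FED dams, 6 mice a group. In CR20 offspring the interval of Ghsr, from 0.04 to 1.30, is the only one that leaves out 0.

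Acot1 had the smallest p of all genes. It lies at GRCm39 chr12:84056256-84065145. CR20-CTRL mice had 2.98 to 3.40 log2 CPM (median 3.06) and CR20-HFD mice 3.44 to 4.42 (median 3.59), with 172 to 248 and 221 to 502 raw counts. Every HFD mouse was above every CTRL mouse, by a narrow margin at mouse 46 and a wide one at mouse 31. The fitted difference was 1.62-fold (log2 fold change 0.70, standard error 0.138, adjusted p = 0.34), and the exact two-sided permutation p of 0.00216 is the smallest that splits of 6 and 6 mice can give. Acot1 was chosen for its p in these same mice, and 68 genes (0.408%) were without overlap. The separation and this permutation p are therefore no further evidence. With each of the 12 mice left out in turn the log2 fold change ran from 0.54 to 0.77. Acot2, the neighbouring mitochondrial paralog of similar sequence, had 33 to 51 counts in CTRL and 34 to 64 in HFD (log2 fold change 0.25, adjusted p = 0.83). Reads that could stem from either paralog make both values uncertain.

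Acot1 took other values in the other tissues of these 12 mice. In liver its log2 fold change was 0.99 (adjusted p = 0.541), and in epididymal fat (eWAT) it was -2.42 (adjusted p = 0.789). Neither passed adjustment over all genes of its tissue in edgeR.

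Nr5a1 encodes steroidogenic factor 1, the transcription factor that specifies gonadotropes. The gene lies on the minus strand at GRCm39 chr2:38581468-38604642. CR20-CTRL mice were tightly grouped at 6.18 to 6.30 log2 CPM (median 6.26), and CR20-HFD mice lay above them at 6.36 to 6.74 (median 6.59). The fitted difference was 1.28-fold (log2 fold change 0.35, adjusted p = 0.499), and it was 0.33 to 0.40 with each mouse left out. Means were 6.51 in FED-CTRL and 6.33 in FED-HFD, beside 6.24 in CR20-CTRL and 6.59 in CR20-HFD. The other gonadotrope markers overlapped between the groups, with Fshb at -0.21, Gnrhr at 0.02 and Lhb, of few counts, at 0.59. The gonadotrope marker sum includes Nr5a1 and is mostly Fshb (mean 676 CPM against 86.1 for Nr5a1). It was 689 to 1030 CPM in HFD and 642 to 1240 CPM in CTRL (exact permutation p = 0.487).

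The remaining genes with the smallest p among those of higher value in CR20-HFD were mostly small differences in moderately expressed genes. Mob3a, of the MOB kinase-activator family, did not overlap between groups, with 5.50 to 5.69 log2 CPM in CTRL and 5.81 to 6.06 in HFD (log2 fold change 0.28, adjusted p = 0.499). Nmral1, a sensor of the NADPH state, was at 0.39, and Bag3, a co-chaperone of HSP70, at 0.38. Ankrd34a was at 0.49, Pwwp2b (a chromatin reader) at 0.37, Rasl11a (a small GTPase) at 0.90 and Cd4 (a lymphocyte and macrophage surface receptor) at 0.64. Pard6a, a scaffold of the cell-polarity complex, was at 0.60, with 4.46 to 4.84 log2 CPM in CTRL and 4.56 to 5.66 in HFD. Its lowest HFD value came from mouse 32. The adjusted p of these genes was 0.499 to 0.517 in edgeR.

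Ltf and Pigr, which encode the secreted iron-binding protein lactoferrin and the receptor that carries IgA across epithelia, were by far highest in mouse 7. Ltf had 1 to 17 counts in CR20-CTRL and 9 to 506 in CR20-HFD, of which 506 were in mouse 7 and at most 55 in the other HFD mice. Its log2 fold change was 3.92 with all mice and 1.82 without mouse 7 (adjusted p = 0.472). Pigr had 1 to 9 counts in CTRL and 8 to 94 in HFD, 94 in mouse 7, with a log2 fold change of 2.42, and 1.47 without that mouse (adjusted p = 0.459).

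Genes with lower values in CR20-HFD were led by Btg1, which restrains cell proliferation and lies at GRCm39 chr10:96452861-96458671. CTRL mice had 6.14 to 6.44 log2 CPM (median 6.25) and HFD mice 5.85 to 6.15 (median 5.96), so that the groups overlapped at a single pair of values. The log2 fold change was -0.30 (standard error 0.0717, adjusted p = 0.499), and -0.32 to -0.27 with each mouse left out. Mean levels in FED offspring were 5.89 in CTRL and 6.10 in HFD, beside 6.28 in CR20-CTRL and 5.98 in CR20-HFD. In each of the 12 lower genes of smallest p, CR20-CTRL had the highest mean of the 4 groups. Their choice on the CR20 values favours this, and which group departs from a usual level was not tested. Ccng2, an unconventional cyclin of arrested cells, did not overlap (4.45 to 4.76 in CTRL, 4.06 to 4.36 in HFD, log2 fold change -0.45). Nek1, a kinase of cilia and DNA repair, did not overlap either (3.63 to 4.15 and 3.10 to 3.52, log2 fold change -0.47). Ripor2, an inhibitor of RHOA, and Liph, a lipase that makes lysophosphatidic acid, were the other members of the group without overlap, at -0.48 and -0.91.

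Rbm25, a splicing regulator, had the smallest p of all genes once mouse 7 was left out. CTRL mice had 4.98 to 5.46 log2 CPM, and HFD mice had 4.43 to 4.78 apart from mouse 7 at 5.22. The log2 fold change was -0.46 with all mice (adjusted p = 0.499) and -0.58 without mouse 7 (adjusted p = 0.0618, edgeR). Means were 4.73 in FED-CTRL and 4.91 in FED-HFD, beside 5.18 in CR20-CTRL and 4.71 in CR20-HFD. Cers6, a ceramide synthase, was at 5.33 to 5.98 log2 CPM in CTRL and 5.04 to 5.57 in HFD, with mouse 7 highest and mouse 31, at 5.41, also within the CTRL range (log2 fold change -0.44, and -0.52 without mouse 7). Cdyl, a chromatin corepressor, was at -0.49, Dclk3, a doublecortin-like kinase, at -0.58 (-0.46 without mouse 7, its lowest library) and Vax1, a homeodomain factor of the ventral forebrain, at -0.69.

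Rgs5, a pericyte regulator of G-protein signalling, was at -0.51 (adjusted p = 0.499), with 5.14 to 5.65 log2 CPM in CTRL and 4.77 to 5.27 in HFD. Only mouse 7 lay within the CTRL range, and the value was -0.59 without it. Rgs5 was the single member of 6 fibroblast and pericyte markers under an unadjusted p of 0.05, beside 7.28% of all genes. The summed level of these markers was 213 to 244 CPM in HFD and 206 to 262 CPM in CTRL (exact permutation p = 0.374). Alb, the liver's plasma albumin, had 10 to 51 counts in CTRL and 0 to 22 in HFD, the 22 in mouse 7 (log2 fold change -2.13, and -3.09 without mouse 7). Of 4 hepatocyte markers 3 were tested and 2 (Alb and Apoa1) were lower at an unadjusted p under 0.05, beside 4.53% of all genes. The summed level was 0.745 to 3.87 CPM in HFD and 2.56 to 6.26 CPM in CTRL. The part of these reads in the result was not tested.

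**Figure D3:**
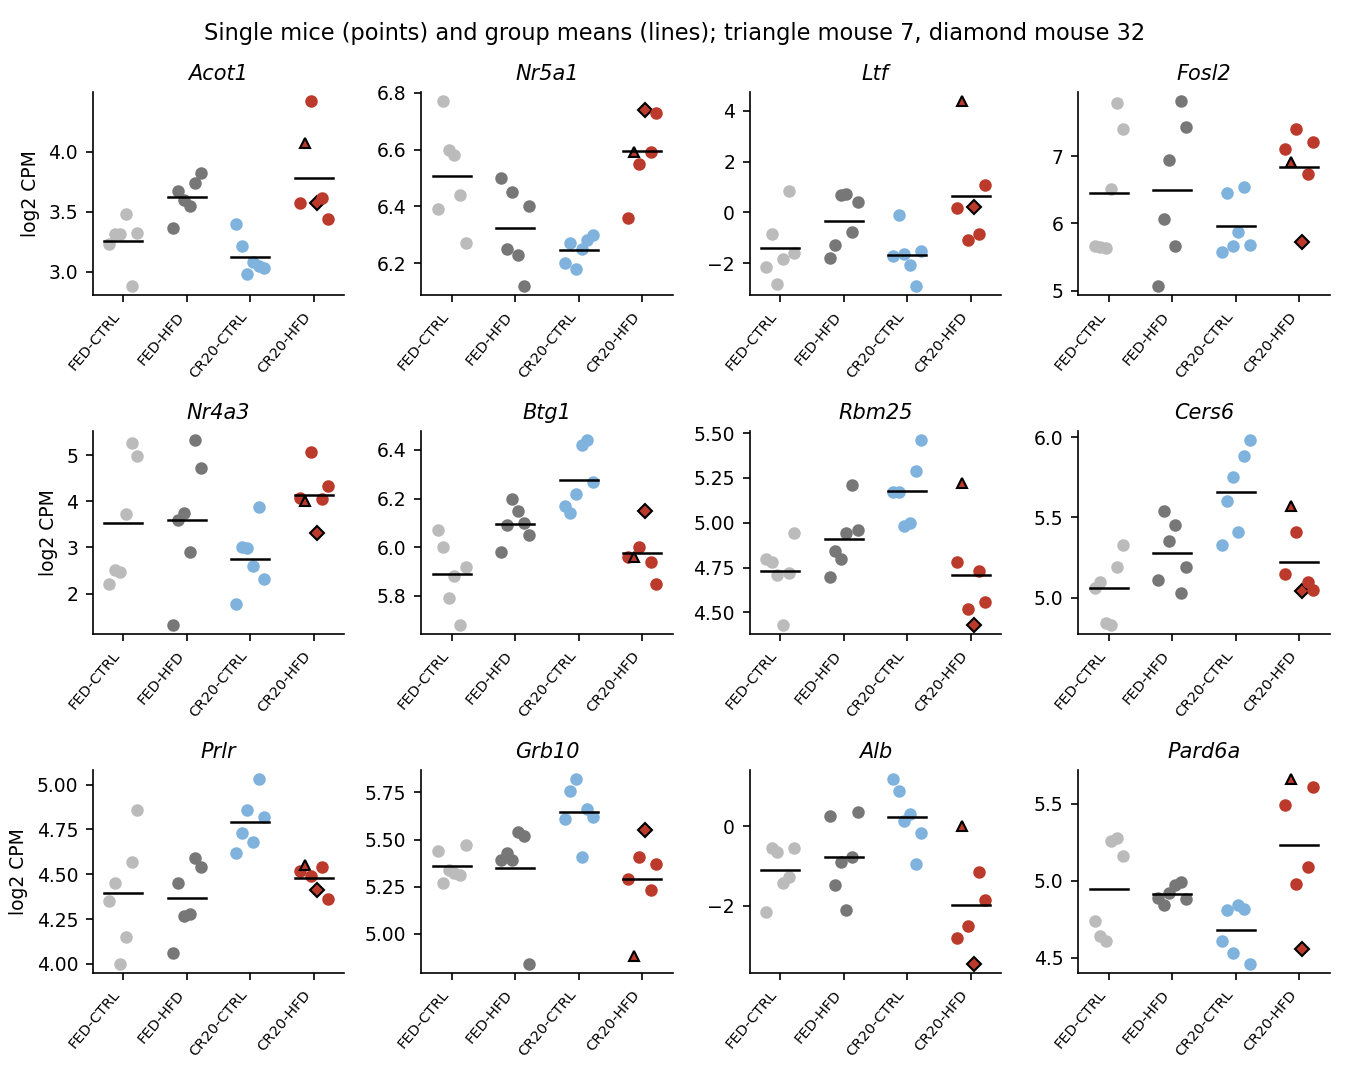
Log2 CPM (y axis) of 12 named genes in single mice of the 4 pituitary groups (x axis), with lines at group means; the triangle is mouse 7 and the diamond mouse 32. Acot1, Nr5a1 and Prlr have no overlap between CR20-CTRL and CR20-HFD. Mouse 7 is the highest HFD point for Ltf, Alb and Rbm25, and mouse 32 is the lowest for Fosl2 and Pard6a.

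Clock genes had mostly lower values in CR20-HFD. Of 19 clock genes, 7 had lower values and 1 a higher value at an unadjusted p under 0.05, beside 4.53% and 2.74% of all genes in the respective directions. The list's median log2 fold change was -0.19 (-0.02 over all genes), and 13 of 19 values were below 0. None passed adjustment (smallest adjusted p = 0.548, edgeR), and the genes are no independent measurements, since each clock gene acts on the others. The time of day at which each mouse was killed is not given in the sources used here.

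Dbp, a clock output factor that drives other rhythmic genes, had the smallest p of the list. The CTRL mice had 6.28 to 7.12 log2 CPM and the HFD mice 5.65 to 6.52. The CTRL mice 4, 5 and 33 stood above every HFD mouse at 7.12, 6.93 and 6.96, while CTRL mice 47, 48 and 49 at 6.28, 6.46 and 6.40 lay among them. The log2 fold change was -0.47 (adjusted p = 0.548), and -0.37 (adjusted p = 0.472) without mouse 7, the lowest HFD mouse. Bmal1 split the same CTRL mice the other way. It was at 3.08, 2.71 and 2.90 log2 CPM in mice 4, 5 and 33. In mice 47, 48 and 49 it was at 4.28, 3.77 and 4.24. The CTRL mice thus differed among themselves in clock genes by animal number, and the cause was not tested.

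Bhlhe41 (a transcriptional repressor also known as DEC2) was at -0.33 (adjusted p = 0.59), with 4.56 to 5.07 log2 CPM in CTRL and 4.16 to 4.76 in HFD. Nr1d2 (REV-ERB beta) was at -0.31 (adjusted p = 0.616), with 6.02 to 6.30 and 5.57 to 6.08. Nr1d1 (REV-ERB alpha) was at -0.38 (adjusted p = 0.621), with 7.48 to 8.22 and 6.75 to 7.59. These groups overlapped in each case. Mouse 7 was again lowest for Nr1d1, and without it the value was -0.28 (adjusted p = 0.586).

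Per1, the light- and hormone-responsive period gene, was the member with a higher value, at 5.94 to 7.25 log2 CPM in CTRL and 6.18 to 7.50 in HFD (log2 fold change 0.51, adjusted p = 0.65). It went the other way from its paralog Per3, at -0.39 (adjusted p = 0.673), and from Cry1, at -0.37 (adjusted p = 0.623). Among the activators, Bmal1 was at 0.13 (adjusted p = 0.916) and Clock at -0.19 (adjusted p = 0.757). Leaving out single mice kept 13 of 19 values below 0 each time, with 4 to 9 lower and 0 to 3 higher members at an unadjusted p under 0.05. In the same fits 396 to 966 of all genes were lower and 369 to 724 higher at that limit. The share of all genes, either direction, ran from 4.56% to 8.92%.

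The clock genes were also measured in the other tissues of these mice, 19 in eWAT and 18 in liver, where Npas2 was not tested. Dbp was at -0.65 in eWAT (adjusted p = 0.828) and -0.38 in liver (adjusted p = 0.756), Bhlhe41 at -0.62 (adjusted p = 0.812) and -0.21 (adjusted p = 0.889), and Nr1d1 at -0.53 (adjusted p = 0.789) and -0.08 (adjusted p = 0.971). Cry1, at -0.37 in the pituitary, was at 0.08 in eWAT and 0.19 in liver. Bmal1 was at 0.33 in eWAT and 1.60 in liver (adjusted p = 0.448). No clock gene passed adjustment in edgeR in either tissue. The tissues come from the same animals, so these are not independent samples.

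The clock binds its own promoters at the E-box CACGTG through BMAL1 and CLOCK, and at the D-box TTANGTAA through DBP and its relatives. RefSeq promoters (GRCm38.p6, from 250 bases before the gene start to 50 after it) matched 15 of the 19 clock genes. An E-box stood in 5 of the 15 (Per1, Cry1, Tef, Ciart and Bhlhe41) and in 7.15% of all 32851 promoters, and a D-box in 1 of the 15 (Per3) and in 2.32% of all; both strands were searched, and no clock promoter held both motifs. The windows below are shown for the members with an unadjusted p under 0.05, so that Per1, with a higher value, stands beside Cry1 and Bhlhe41, with lower values and the same E-box. Capitals mark the motif, and the sequences run 5′ to 3′ on the gene's strand at chr11:69098753-69098818 (plus), chr10:85185079-85185144 (minus), chr6:145865538-145865603 (minus) and, for the first of the 2 D-boxes of Per3, chr4:151044833-151044900 (minus).
Per1: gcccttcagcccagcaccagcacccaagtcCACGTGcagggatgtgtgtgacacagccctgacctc
Cry1: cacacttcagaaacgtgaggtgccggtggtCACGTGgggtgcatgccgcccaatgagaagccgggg
Bhlhe41: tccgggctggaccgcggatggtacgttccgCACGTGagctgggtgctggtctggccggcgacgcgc
Per3: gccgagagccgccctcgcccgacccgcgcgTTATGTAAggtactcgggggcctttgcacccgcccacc
A match is a description of the letters in this window and not a measured binding site.

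**Figure D4:**
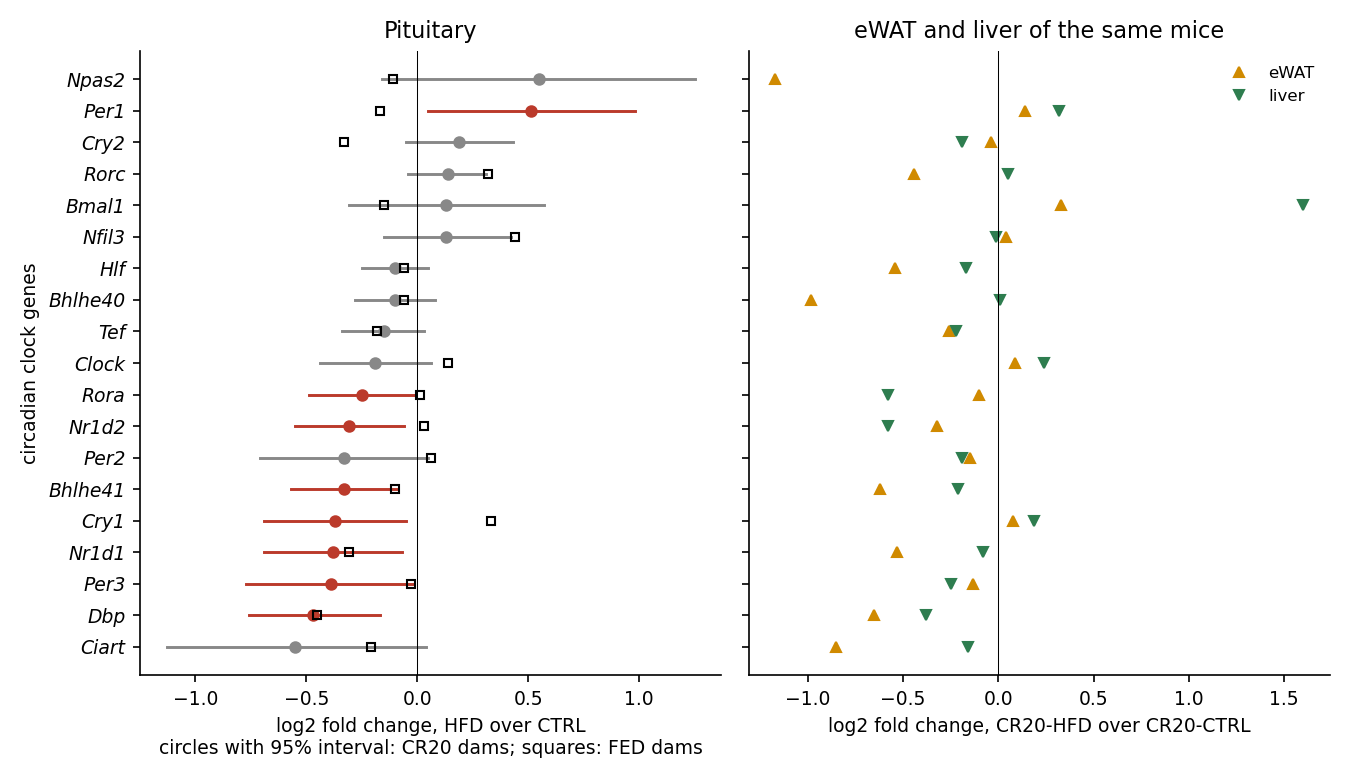
Left, log2 fold change (x axis) of 19 clock genes (y axis) in the pituitary, as circles with 95% intervals for CR20 offspring (red at an unadjusted p under 0.05) and open squares for FED offspring; right, the CR20 diet difference in eWAT and liver of the same mice. In the pituitary 7 of the 8 red values lie below 0 and Per1, at 0.51, lies above.

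Immediate early genes, which cells induce within minutes of a stimulus or of handling, spread in both directions. Of 19 members, Nr4a3, Fosl2 and Atf3 were higher in CR20-HFD at an unadjusted p under 0.05 and Egr2 and Egr4 lower, beside 2.74% and 4.53% of all genes, with a median of 0.06. Nr4a3, an orphan nuclear receptor, had the largest difference of any named gene above 10 CPM, from 1.78 to 3.87 log2 CPM in CTRL (median 2.79) to 3.31 to 5.06 in HFD (median 4.05), or 2.52-fold (adjusted p = 0.602). Fosl2, an AP-1 subunit, was at 5.57 to 6.55 and 5.72 to 7.40 (log2 fold change 0.92, adjusted p = 0.623). 5 of the 6 HFD mice stood above all CTRL mice for Fosl2, and mouse 32 stood among the CTRL mice. Mice on the same diet spread widely in FED offspring. Nr4a3 ran from 2.21 to 5.25 log2 CPM in FED-CTRL and from 1.32 to 5.32 in FED-HFD. Fosl2 ran from 5.63 to 7.80 and from 5.07 to 7.82.

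Atf3, a stress-responsive factor, was at 1.11 (adjusted p = 0.663), Egr2 at -0.54 (adjusted p = 0.64) and Egr4 at -0.99 (adjusted p = 0.683). Egr2 was at -0.26 without CTRL mouse 48, and Egr4 at -0.29 without CTRL mouse 47. Fos was at -0.63 (adjusted p = 0.909) and Egr1 at -0.50 (adjusted p = 0.911), with wide spreads. Pvr, an adhesion receptor, and Serpina3f, a protease inhibitor of a family of near-identical copies, completed the 5 largest differences above 10 CPM, at 0.90 (adjusted p = 0.568) and 0.99 (adjusted p = 0.706). For Pvr, mouse 32 was again the lowest HFD mouse, at 3.07 log2 CPM against a group median of 4.25.

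Genes of fatty acid oxidation and targets of the fatty acid receptor PPAR alpha lay mostly above 0. Of 22 tested, 18 had a log2 fold change above 0 and the median was 0.10, against -0.02 and 45.7% above 0 over all genes. Only Acot1 and Cpt2 (mitochondrial carnitine palmitoyltransferase, at 5.02 to 5.35 log2 CPM in CTRL and 5.28 to 5.46 in HFD) were at an unadjusted p under 0.05, beside 7.28% of all genes. Cpt2 had a log2 fold change of 0.18 (adjusted p = 0.663). Pdk4, which spares glucose by blocking pyruvate dehydrogenase, was at -0.11 (interval -0.58 to 0.35), and Angptl4, an inhibitor of lipoprotein lipase, at 0.41 (interval -0.12 to 0.94).

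Lipid synthesis gave 1 gene in each direction at an unadjusted p under 0.05, beside 2.74% of all genes higher and 4.53% lower. Fdft1 (squalene synthase), 1 of 20 cholesterol genes tested, did not overlap between groups at 6.92 to 7.08 log2 CPM in CTRL and 7.10 to 7.22 in HFD (log2 fold change 0.17, adjusted p = 0.621). The median of the cholesterol list was -0.01. Elovl6, the elongase of long-chain fatty acids, 1 of 14 genes of fatty acid synthesis, was at -0.29 (adjusted p = 0.687). In the livers of the same mice Elovl6 was at -2.47 (adjusted p = 0.015, edgeR).

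Of 13 receptors for peripheral hormones 2 had lower values at an unadjusted p under 0.05, beside 4.53% of all genes. In all 2 of 13 lay above 0, beside 45.7% of all genes, and the median was -0.09. Prlr, the prolactin receptor, did not overlap between groups, at 4.62 to 5.03 log2 CPM in CTRL (median 4.77) and 4.36 to 4.55 in HFD (median 4.50), with a log2 fold change of -0.32 (adjusted p = 0.59). Nr3c2, the mineralocorticoid receptor, was at -0.32 (adjusted p = 0.623). Lepr, the leptin receptor, was at -0.17 (adjusted p = 0.913), Insr at -0.06 (adjusted p = 0.882) and Nr3c1, the glucocorticoid receptor, at -0.16 (adjusted p = 0.827). Of 9 genes of JAK-STAT signalling, by which leptin, growth hormone and prolactin act, Jak2 was at -0.27 (adjusted p = 0.663) and Stat3 at -0.15 (adjusted p = 0.673), and 4 of 9 lay above 0. The largest value of the list was that of Cish, a feedback inhibitor, at 0.28 (adjusted p = 0.716), while Socs3, another, was at -0.08 (adjusted p = 0.901). Without mouse 7, Jak2 was at -0.24 and Stat3 at -0.14. Of 8 IGF-system genes Igfbp6, which binds IGF-2, was at 0.30 (adjusted p = 0.636).

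Lineage factors and the secretory machinery held 3 and 2 members at an unadjusted p under 0.05, of 17 and 20, beside 7.28% of all genes. Of the lineage factors, Nr5a1 and Lhx3 (early pituitary specification; 0.18, adjusted p = 0.663) were higher and Neurod4 (a bHLH factor of the gland; -0.35, adjusted p = 0.636) lower. Lhx3 was at 0.10 (adjusted p = 0.704) without mouse 7, its highest HFD library at 7.74 log2 CPM. Of the genes of secretory granules, Chgb (a granin) and Pcsk1n (an inhibitor of a prohormone convertase) were lower, at -0.26 (adjusted p = 0.644) and -0.22 (adjusted p = 0.669), and the median was -0.02. Of 20 genes of the unfolded protein response 0 were at an unadjusted p under 0.05, with all values between -0.15 and 0.13.

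Imprinted genes, many of which set fetal growth, had 2 members in each direction among 20 tested, beside 2.74% of all genes higher and 4.53% lower. Grb10, an adaptor that restrains insulin and growth factor signalling, was at 5.41 to 5.82 log2 CPM in CTRL and 4.88 to 5.55 in HFD (log2 fold change -0.35, adjusted p = 0.539). Mouse 7 was the lowest, and without it the value was -0.28 (adjusted p = 0.465). Peg3 was at -0.27 (adjusted p = 0.63), Nnat at 0.18 (adjusted p = 0.673) and Snrpn at 0.16 (adjusted p = 0.68). Without mouse 7, Peg3 was at -0.21 and Nnat at 0.14.

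The housekeeping lists shifted by small amounts. Of 78 cytosolic ribosomal protein genes 72 were above 0, beside 45.7% of all genes, with a median of 0.08, and 4 were at an unadjusted p under 0.05, beside 7.28% of all genes. Of 83 respiratory chain subunits 68 were above 0, with a median of 0.06 and 1 such member, and 10 mitochondrially encoded proteins had a median of 0.02. Exonic length differed between the directions, in that the 457 genes of higher value had a median length of 4392 bases and the 755 of lower value 9024 bases, beside 5749 for all genes tested. Across genes the rank correlation of the log2 fold change with exonic length was -0.17, a description, since all genes share the same libraries. The part of length in any named difference was not tested.

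Cell cycle genes had 1 of 21 members at an unadjusted p under 0.05, beside 7.28% of all genes, with a median of 0.13. The member was Ccnb1 (cyclin B1) at 0.94 (adjusted p = 0.616). Its levels were low, at -2.09 to -0.29 log2 CPM in CTRL and -0.41 to 0.35 in HFD. Of 14 glucocorticoid-responsive genes Per1 alone was at an unadjusted p under 0.05, beside the same 7.28%. Fkbp5, a standard readout of the receptor, was at -0.22 (adjusted p = 0.779). Of 17 collagen and matrix genes 0 reached that limit, with values from -0.22 to 0.23.

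Interferon-stimulated genes gave 0 of 24 members at an unadjusted p under 0.05, beside 7.28% of all genes. Of the 24, 20 lay above 0, beside 45.7% of all genes, with a median of 0.13. Isg15 was at 0.11 (interval -0.24 to 0.46) and Ifit1 at -0.06 (interval -0.50 to 0.39). Macrophage and leukocyte markers also had higher values in CR20-HFD, with a summed level of 254 to 347 CPM in HFD and 209 to 294 CPM in CTRL (exact permutation p = 0.0411, adjusted p = 0.404 over 16 marker lists). Of 9 tested markers, C1qa (0.32, adjusted p = 0.623), C1qc (0.30, adjusted p = 0.65) and Csf1r (0.28, adjusted p = 0.555) were higher at an unadjusted p under 0.05, beside 2.74% of all genes. Whether these cells carry any of the differences above was not tested.

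Marker sums of the other cell types did not separate the diets after adjustment. The somatotrope sum was 227000 to 306000 CPM in HFD and 211000 to 327000 in CTRL (exact permutation p = 0.896), the lactotrope sum 6630 to 16500 and 8990 to 14300 (p = 0.803 by the exact test), and the corticotrope sum 20100 to 27900 and 23000 to 37100 (p = 0.182 by the exact test). Each of these sums is almost wholly its hormone transcript. Mean levels over the pituitary libraries were 272000 CPM for Gh against 184 for Ghrhr, and 10600 for Prl against 215 for Drd2. Pomc was at 25200 CPM against 21.8 for Crhr1. The sums thus repeat the hormone values above and are no separate measure of these cell types. Posterior lobe markers summed to 29.1 to 40.4 CPM in HFD and 22.8 to 52.8 in CTRL, and brain neuron and glia markers to 82.6 to 108 and 78 to 106. The 4 adipocyte markers were near absent, at 0 to 0.449 CPM in HFD and 0.191 to 1.1 CPM in CTRL.

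**Figure D5:**
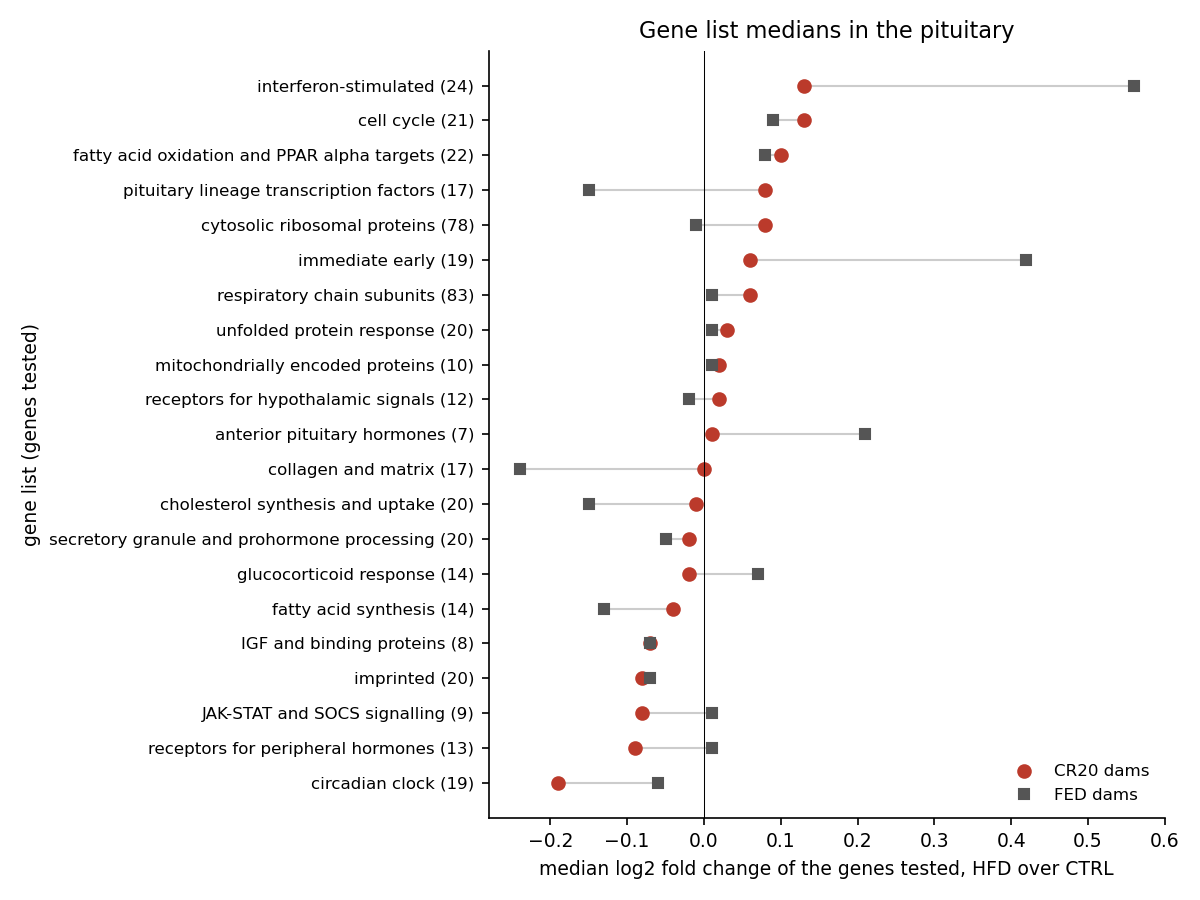
Median log2 fold change of HFD over CTRL (x axis) for 21 gene lists in the pituitary (y axis, number of genes tested in brackets), as circles for CR20 offspring and squares for FED offspring. In CR20 offspring the medians run from -0.19 for the clock to 0.13 for interferon-stimulated and cell cycle genes, and in FED offspring the interferon median is 0.56.

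The diet comparison in offspring of FED dams, 6 mice a group with no mouse in common, was used to see where the CR20 offspring differed. It had no gene at an adjusted p under 0.05 in edgeR either (0%, smallest adjusted p = 0.0632), while DESeq2 called 19. At an unadjusted p under 0.05 it had 1606 genes (9.64%), 734 higher (4.41%) and 872 lower (5.24%). Both diet comparisons shared 136 of these genes (11.2% of the CR20 genes and 8.47% of the FED genes), 40 higher in both, 17 lower in both and 79 of opposite direction.

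Dbp and Acot1 had the same direction under both maternal groups. So did Nr1d1 (-0.38 in CR20 and -0.31 in FED offspring) and Pcsk1n (-0.22 and -0.26). Cry1 went opposite ways, at -0.37 in CR20 and 0.33 in FED offspring. Dbp was at -0.47 in CR20 and -0.45 in FED offspring (adjusted p = 0.287), and the interaction of maternal group and diet was -0.02 (adjusted p = 0.978). Acot1 was at 0.70 and 0.37 (adjusted p = 0.365 in FED), with an interaction of 0.33 (adjusted p = 0.541). Interferon-stimulated genes had 17 of 24 members higher at an unadjusted p under 0.05 in FED offspring and 0 in CR20 offspring, beside 4.41% and 2.74% of all genes. But the interaction itself reached that limit for 5 of 24, all negative, beside 6.18% of all genes. Macrophage and leukocyte markers were higher in FED-HFD too, 5 of 9 at an unadjusted p under 0.05, beside 4.41% of all genes, with a median of 0.42. Their sums were 247 to 392 CPM in FED-HFD against 233 to 275 CPM in FED-CTRL, and their part in the interferon values was not tested. Pdk4 was at 1.04 in FED and -0.11 in CR20 offspring (interaction -1.15, adjusted p = 0.314), and Angptl4 at 1.04 and 0.41 (interaction -0.63, adjusted p = 0.533). FED-HFD mouse 10, the library with adipocyte markers, was also left out, a choice made after the data were seen. Pdk4 was then at 1.06 and Angptl4 at 1.03 in FED offspring. In this fit 15 of 24 interferon-stimulated genes were higher at an unadjusted p under 0.05. Over all genes, 1885 in either direction were at that limit without mouse 10 and 1606 with it. With all mice, Trhr was at 0.63 in FED (adjusted p = 0.278) and -0.05 in CR20 offspring, with an interaction of -0.68 (adjusted p = 0.388).

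No interaction passed an adjusted p of 0.05 in edgeR (0%, smallest adjusted p = 0.314), with 804 positive (4.83%) and 1029 negative (6.18%) genes at an unadjusted p under 0.05; DESeq2 called 2 genes. Btg1 had the smallest p, at -0.30 in CR20 and 0.20 in FED offspring (interaction -0.50, adjusted p = 0.314). Nr5a1 followed, at 0.35 in CR20 and -0.18 in FED offspring (interaction 0.54, adjusted p = 0.314). Rtl6 (a retrotransposon-derived gene; 0.38), Kcng4 (a modulatory potassium channel subunit; 0.79) and Cotl1 (an actin-binding protein; 0.46) had the other positive interactions. Nek1 (-0.67), Xk (a membrane protein of the Kell complex; -0.92) and Tcstv4 (of a multicopy family, at an average of 0.408 CPM; -2.85) had the other negative ones.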

How the data were processed

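The authors trimmed the reads, mapped them with STAR to GRCm39 and summed them per Ensembl gene with featureCounts. The deposited values are raw counts, whole numbers with no scaling. The strand setting of the counting and any batch are not given in the sources used here. Groups and animal numbers came from sample titles. Symbols and positions came from GENCODE M39 (54749 of 55416 identifiers matched).

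All 24 pituitary libraries were fitted together in edgeR 4.0.16 (R 4.3.3), 4 group means, filterByExpr (minimum count 10), TMM, quasi-likelihood tests, Benjamini-Hochberg adjustment. Log2 CPM used a prior count of 2. Marker sums were compared by an exact two-sided permutation test. Alternatives used limma 3.58.1 and DESeq2 1.42.0. Another added the range of the animal number (under 20, 20 to 39 or above 39) as a covariate. What these numbers stand for is not given in the sources used here. The fit was also run on simulated counts with known changes. These were drawn independently for each library, so they cannot check effects of shared litters or of single libraries. Animals are the replicates, but their litters are not stated.

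Members and lists were chosen with earlier results of these data known. Named were all hormone and hypothalamic receptor genes, the 12 higher and 12 lower genes of smallest p, list members at an unadjusted p under 0.05 (up to 4 a list), 4 interactions a direction and the 5 largest differences above 10 CPM. Clock and lipid genes beyond these, and other list members given for context, were picked after their values were seen.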

Additional observations from a re-analysis of the deposited data

Results flagged for a closer look

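Among 202 groups of 6 values examined (85 named genes and 16 marker lists in both CR20 groups), 9 had 1 mouse far from the other 5 by Dixon's criterion, which flags about 1 group in 20 by chance. Mouse 7 of CR20-HFD, the library with salivary transcripts, accounted for 6 of them. It was lowest for Ghrhr at 6.80 log2 CPM (next 7.52) and for Nr1d1 at 6.75 (next 7.39). It was highest for Pigr at 1.98 (next -0.16), Rgs5 at 5.27 (next 4.90), Lhx3 at 7.74 (next 7.42) and the adipocyte marker sum at 0.449 CPM (next 0.127). In CR20-CTRL, mouse 33 was lowest for Adcyap1r1 at 5.71 log2 CPM (next 5.94), mouse 48 highest for Tcstv4 at -0.16 (next -1.08) and mouse 5 highest for the adipocyte sum at 1.1 CPM (next 0.336).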

How the results depend on the processing

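No gene was called in CR20-HFD against CR20-CTRL under limma voom with or without quality weights, DESeq2 size factors, the filter of over 1 CPM, the animal-number covariate, robust empirical Bayes, the fit of the compared groups alone, the threshold of the methods or with any mouse left out. DESeq2 called 1 gene, and edgeR without a filter 7 (Bpifa2, Dcpp1, Dcpp2, Dcpp3, Ltf, Acot1 and Pard6a). Genes at an unadjusted p under 0.05 numbered 2222 (832 higher, 1390 lower) with quality weights and 2272 (1054 higher, 1218 lower) without a filter, and 693 were higher with only the groups compared. With 1 mouse left out they ranged from 765 to 1497, the higher ones from 369 to 724 and the lower ones from 396 to 966. The lowest total and the 396 came without CTRL mouse 49, the 724 without CTRL mouse 5, and the lower genes numbered 501 without HFD mouse 45. In FED offspring DESeq2 called 19 genes and the unfiltered fit 55, with 0 to 17 calls over the mice left out (17 without mouse 11, 2 without mouse 23). DESeq2 called 2 interactions.

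Of 85 named genes, 77 kept their direction throughout. The others lay near 0: with 1 mouse left out, Gh ranged from -0.05 to 0.08, Prl from -0.18 to 0.10, Cga from -0.04 to 0.14, Avpr1b from -0.08 to 0.14, Trhr from -0.14 to 0.05, Gnrhr from -0.11 to 0.20, Drd2 from 0.00 to 0.12 and Adcyap1r1 from -0.03 to 0.09. With the animal-number covariate Gh was 0.00, Cga -0.01 and Avpr1b -0.02. Avpr1b was 0.00 by voom and Gnrhr -0.03 with quality weights. The JAK-STAT median of -0.08 was -0.03 with the covariate; the cause was not tested. No paired analysis was possible because the compared groups share no animal numbers, which link only the tissues of 1 mouse.

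Depth limits low-count genes: Ltf, Pigr, Alb, Lhb and Tcstv4 rest on few reads in most mice.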
